A study of Mus musculus with 6 samples.

Results

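The proteasome subunits and regulators were the 47 protein-coding genes of the count table whose symbol was Psm, a letter from a to g and a digit, out of 41921 rows. By the family letters they comprised 15 genes of the core 20S particle (Psma and Psmb), 19 of the 19S regulatory particle and its assembly (Psmc and Psmd), 5 of the immunoproteasome (Psmb8, Psmb9, Psmb10, Psme1 and Psme2) and 8 others. After the filter on low counts, 46 of them were tested among 13158 genes. Psmb11, a core subunit of the thymus, was not tested, with 0 to 3 counts in a library. Psmc3ip carries a similar symbol but encodes a factor of homologous recombination, so it is a member by its name alone. Psmb5 and Psmd2, a catalytic core subunit and a base subunit of the 19S particle, did not meet the rule, and the rows that match their proteins are described apart.

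RNA was sequenced from RAW264.7, a mouse line of the monocyte and macrophage lineage that carries a wild-type label and can form osteoclasts, the cells that resorb bone. The 3 albiflorin libraries came from cells under albiflorin, a glycoside of peony root, and the 3 RANKL libraries from cells under RANKL, the cytokine that drives osteoclast formation. The protocol text is the same for both groups: RANKL was applied at 50 ng/mL to cells that had stood at confluence for 3 days. How much albiflorin the cells received, for how long, and whether together with RANKL, is not given in the labels. Below, with albiflorin and with RANKL name the groups by title, not the presence or absence of RANKL. Nothing there says whether replicates were separate cultures, so the p-values cover the spread among these 6 libraries, which may be technical.

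The proteasome is the large protease that degrades proteins tagged with ubiquitin. Its 20S core is a barrel of outer alpha rings, which gate the entrance, and inner beta rings, which hold the catalytic sites. The 19S particle caps the barrel, where its ATPases unfold substrates and its other subunits bind and remove ubiquitin, and activators of the PA28 and PA200 kinds can take its place. In immune cells, and under interferon, the catalytic subunits Psmb5, Psmb6 and Psmb7 can be replaced by Psmb8, Psmb9 and Psmb10, which changes the peptides that are made for MHC class I, and in osteoclast precursors the proteasome is known for the turnover of the NF-kappaB inhibitor downstream of RANKL.

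Total counts ranged from 13673284 to 15489482 a library. The macrophage markers summed to 3828 to 4011 CPM (read counts scaled to a common library size, after TMM) in albiflorin libraries and 3761 to 4042 CPM in RANKL libraries, and among them Itgam averaged 0 CPM with albiflorin and 0.0245 CPM with RANKL. Of the 7 tested, Cd14 was called higher, at 730.1 ± 1.85 CPM with albiflorin and 609.5 ± 53.7 CPM with RANKL, and Adgre1 lower, at 75.4 ± 7.06 CPM with albiflorin and 92.6 ± 5.31 CPM with RANKL (SD, n = 3 each). The osteoclast markers summed to 186 to 196 CPM with albiflorin and 194 to 208 CPM with RANKL. Of these, Calcr had 0 counts in every library and Ctsk averaged 0.693 CPM with albiflorin and 0.457 CPM with RANKL, while of the 7 tested Acp5 and Mmp9 were called higher and Nfatc1 lower. Nfatc1, which made up most of the sum, averaged 122 ± 5.5 CPM with albiflorin and 143 ± 7.45 CPM with RANKL, Acp5 28.0 ± 1.59 CPM with albiflorin and 22.9 ± 2.11 CPM with RANKL, and Mmp9 10.6 ± 2.6 CPM with albiflorin and 7.65 ± 1.09 CPM with RANKL (SD, n = 3 each). The Mmp9 groups overlapped. Once the trend with mRNA length described below was removed, edgeR called none of the osteoclast markers. The adjusted p was then 0.631 for Acp5, 0.0591 for Mmp9 and 0.179 for Nfatc1. Cd14 was no longer called either (adjusted p = 0.194), while Adgre1 stayed lower (adjusted p = 0.00835). Summed markers of B cells, T cells and stromal cells stayed at or under 1.62 CPM with albiflorin and 1.89 CPM with RANKL, and 3 of 5, 2 of 5 and 3 of 6 of them had 0 counts in every library.

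With albiflorin, most proteasome genes stood higher than with RANKL by less than 1.5-fold. In edgeR's quasi-likelihood test, with Benjamini-Hochberg adjustment over all tested genes and a threshold of 0.05, 29 of the 46 tested members were higher and 1, Psme4, was lower. Among all tested genes 12.5% were called higher and 11.7% lower, 24.2% in either direction. The median log2 fold change (albiflorin over RANKL) was 0.26 over the tested members and 0.006 over all tested genes. For 35 members every albiflorin library lay above every RANKL library, for 3 (Psme4, Psme3 and Psmd1) every one lay below, and for 8 the groups overlapped; over all tested genes 20.8% lay wholly above and 19.3% wholly below. Together the members took 0.560 ± 0.025% of the counts with albiflorin and 0.487 ± 0.0225% with RANKL (SD, n = 3 each). In bulk RNA, more cells with high levels and more RNA per cell cannot be told apart.

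The calls depended on single libraries and on transcript length. Higher calls numbered 15 without albiflorin 1, 22 without albiflorin 2, 32 without albiflorin 3, 29 without RANKL 1, 18 without RANKL 2 and 29 without RANKL 3, and Psme4 was called lower in each of these fits. Over all tested genes, the share called higher was 12.5% with every library kept. It was 7.73%, 7.8% and 13.3% without albiflorin 1, 2 and 3, and 10.1%, 8.06% and 9.98% without RANKL 1, 2 and 3. Of the 30 called members, 16 were called whichever library was left out. The like share over all tested genes was not counted. Across all genes the log2 fold change was lower the longer the transcript; with that trend removed by mRNA length, 8 members were called higher and 0 lower, against 5.39% of all genes higher and 6.2% lower. With it removed by the gene length listed in the deposited table, 12 were higher and 2 lower, against 7.49% and 8.43%. Psma3, Psmb8 and Psmb9 were the 3 members called higher in these 3 fits and in every fit that left out a library. They also passed under each of the 8 other alternatives run. Their length-corrected calls rest on the lengths assigned to each gene.

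**Figure D1:**
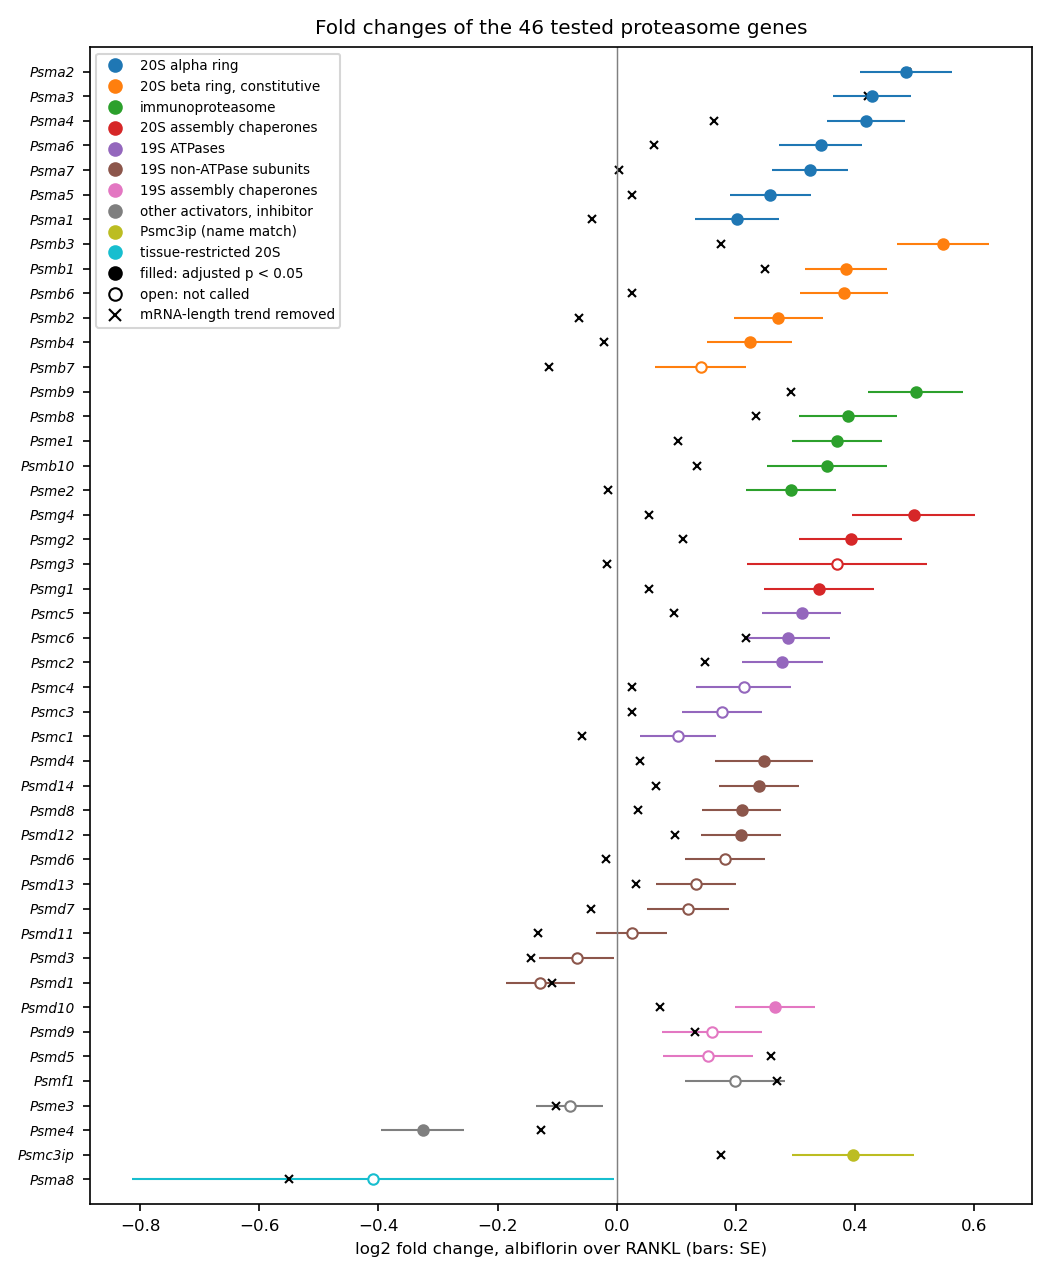
Log2 fold change of each tested proteasome gene, albiflorin over RANKL, from edgeR on 3 libraries per group, with bars of 1 SE; filled circles passed an adjusted p of 0.05 and crosses give the value after removing the mRNA-length trend. The 29 called increases fill the upper groups, Psme4 is the filled circle left of 0, and most crosses lie nearer to 0 than their circles; for Psma2 the cross is hidden behind the circle.

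The promoters of Psmb9, Psmb8, Psma3 and Psme4 are printed because the first 3 were higher in all fits above and Psme4 was the single lower call. They run from 250 bases before to 50 after the start site in RefSeq's GRCm38.p6 annotation, in the gene's direction, at chr17:34187281-34187580 on the minus strand for Psmb9, chr17:34197945-34198244 on the plus strand for Psmb8, chr12:70974373-70974672 on the plus strand for Psma3 and chr11:30771525-30771824 on the plus strand for Psme4. Capitals mark matches, on either strand, to CCAAT (the CCAAT box), TGACNNNGC (the core of the antioxidant response element, to which the proteasome gene activator Nfe2l1 binds) or TTTCNNTTTC (a core of the interferon-stimulated response element).
Psmb9: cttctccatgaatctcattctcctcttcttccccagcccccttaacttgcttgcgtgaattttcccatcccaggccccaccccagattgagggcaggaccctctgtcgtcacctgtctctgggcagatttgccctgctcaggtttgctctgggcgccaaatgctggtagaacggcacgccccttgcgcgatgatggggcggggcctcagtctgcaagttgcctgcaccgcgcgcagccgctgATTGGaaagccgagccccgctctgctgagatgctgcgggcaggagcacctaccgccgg
Psmb8: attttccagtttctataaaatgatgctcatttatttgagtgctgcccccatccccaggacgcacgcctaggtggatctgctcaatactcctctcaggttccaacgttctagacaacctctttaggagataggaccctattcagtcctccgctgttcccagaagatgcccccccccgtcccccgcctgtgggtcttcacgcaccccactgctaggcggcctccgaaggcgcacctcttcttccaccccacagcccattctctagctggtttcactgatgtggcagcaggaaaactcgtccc
Psma3: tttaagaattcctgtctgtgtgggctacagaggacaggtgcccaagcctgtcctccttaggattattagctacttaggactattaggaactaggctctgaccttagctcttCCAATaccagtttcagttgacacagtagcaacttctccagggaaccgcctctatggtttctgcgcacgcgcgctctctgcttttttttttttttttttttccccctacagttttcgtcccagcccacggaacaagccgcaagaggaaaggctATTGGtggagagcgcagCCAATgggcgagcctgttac
Psme4: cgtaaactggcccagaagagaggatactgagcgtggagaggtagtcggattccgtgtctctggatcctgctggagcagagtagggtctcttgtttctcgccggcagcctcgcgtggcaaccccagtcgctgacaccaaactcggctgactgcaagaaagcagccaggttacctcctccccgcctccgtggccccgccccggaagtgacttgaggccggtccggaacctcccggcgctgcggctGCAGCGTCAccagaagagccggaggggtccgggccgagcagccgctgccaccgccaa

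CCAAT occurred in the windows of Psmb9 (once, reversed) and Psma3 (on both strands), the antioxidant core occurred once in that of Psme4, and the Psmb8 window held none of the 3 motifs. RefSeq windows were matched for 39 of the 47 members, 42 windows in all. A member was counted if any of its windows held the motif, while the shares over all 32851 windows count each window singly. The antioxidant core lay in those of 5 members (12.8% of the 39, against 12.4% of all 32851 windows): Psmb6, Psmc6, Psmd12, Psmd9 and Psme4. The interferon core also lay in 5 (12.8% against 3.44%), namely Psmb3, Psmd4, Psmd9, Psme1 and Psmg4, and CCAAT in 15 (38.5% against 37.4%). No motif lies within another. Psmb9 and Tap1, a subunit of the transporter that carries peptides into the endoplasmic reticulum, start 226 bases apart on opposite strands, so that 275 bases of the Psmb9 window are also in the Tap1 window. Tap1 had 92.6, 83.2 and 94.4 CPM with albiflorin and 88.9, 83.6 and 94.3 CPM with RANKL, and its log2 fold change of 0.02 ± 0.07 (SE, adjusted p = 0.878) was not called.

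The catalytic immunoproteasome subunits and PA28 were all called higher with albiflorin, 5 of 5, with a median log2 fold change of 0.37. Psmb9, the inducible form of the caspase-like subunit (chromosome 17, 35474849 to 35480625 in the deposited table), had 70.9, 83.0 and 70.5 CPM in albiflorin libraries and 53.4, 48.7 and 56.4 CPM in RANKL libraries. All 3 albiflorin libraries lay above all RANKL libraries, and the log2 fold change was 0.50 ± 0.08 (SE, adjusted p = 0.000245). It was 0.29 ± 0.07 (adjusted p = 0.00584) with the mRNA-length trend removed, and between leave-one-out fits the adjusted p ran between 8.66e-05 and 0.00448. In the deposited table the Psmb9 row overlaps the Tap1 row by 212 bases on the opposite strand, and Tap1 had 141% of its counts, so reads there could be shared.

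Psmb8, the inducible chymotrypsin-like subunit (chromosome 17, 35491856 to 35498447), had 91.9, 100.3 and 86.9 CPM with albiflorin and 80.0, 62.4 and 71.2 CPM with RANKL. Its groups did not overlap, with RANKL 2 the lowest library. The log2 fold change was 0.39 ± 0.08 (SE, adjusted p = 0.00218), and 0.23 ± 0.07 (adjusted p = 0.0271) with the mRNA-length trend removed. Psmb10, the inducible trypsin-like subunit (chromosome 8, 112232507 to 112235171), had 32.3, 35.7 and 29.5 CPM with albiflorin and 24.7, 23.1 and 28.7 CPM with RANKL. The highest RANKL library came within 1 CPM of the lowest albiflorin library. Its log2 fold change of 0.35 ± 0.10 (SE, adjusted p = 0.014) was not called in 3 of the 6 leave-one-out fits, where the adjusted p reached 0.0838, nor without the mRNA-length trend, where it stood at 0.13 ± 0.09 (adjusted p = 0.353).

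Psme1 and Psme2 encode the alpha and beta subunits of PA28, the interferon-inducible cap that opens the core without ATP. Psme1 (chromosome 14, 52108833 to 52112239) had 114, 129.5 and 106 CPM with albiflorin and 93.9, 82.8 and 94.5 CPM with RANKL, a log2 fold change of 0.37 ± 0.08 (SE, adjusted p = 0.00166). Psme2, its neighbour on the same chromosome (52118263 to 52121858), had 125, 128 and 104 CPM with albiflorin and 98.6, 91.2 and 102 CPM with RANKL, a log2 fold change of 0.29 ± 0.08 (SE, adjusted p = 0.00794). Both were separated by group, Psme2 narrowly, and Psme2 was not called without albiflorin 1 or without RANKL 2, where its adjusted p reached 0.0692. Without the mRNA-length trend Psme1 stood at 0.10 ± 0.06 (adjusted p = 0.251) and Psme2 at -0.02 ± 0.06 (adjusted p = 0.903).

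The constitutive counterparts of the inducible catalytic subunits were measured for 2 of the 3 pairs. Psmb6, the caspase-like subunit that Psmb9 replaces (chromosome 11, 73214542 to 73217066), had 129.9, 127 and 112 CPM with albiflorin and 99.7, 84.7 and 98.8 CPM with RANKL, a log2 fold change of 0.38 ± 0.07 (SE, adjusted p = 0.00112). Without the mRNA-length trend it stood at 0.02 ± 0.06 (adjusted p = 0.836) and was not called. Without the gene-length trend it was called, at 0.21 ± 0.06 (adjusted p = 0.0233). Psmb7, the trypsin-like subunit that Psmb10 replaces (chromosome 2, 38385815 to 38441538), had 103, 105 and 87.3 CPM with albiflorin and 97.0, 84.6 and 86.4 CPM with RANKL. Its groups overlapped and the log2 fold change of 0.14 ± 0.08 (SE, adjusted p = 0.193) was not called; the Psmb7 row also overlaps the Nek6 row on the opposite strand, which had 89.1% of its counts.

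Set per length, the share of the inducible form within a pair overlapped between the groups. In CPM per kilobase of mRNA, Psmb9 made up 24.4, 27.9 and 27.1% of Psmb9 plus Psmb6 with albiflorin and 24.0, 25.3 and 25.2% with RANKL, a mean of 26.4 ± 1.85% with albiflorin and 24.9 ± 0.708% with RANKL (SD, n = 3 each). Psmb10 made up 21.7, 23.2 and 23.0% of Psmb10 plus Psmb7 with albiflorin and 18.4, 19.4 and 22.7% with RANKL, a mean of 22.6 ± 0.829% with albiflorin and 20.2 ± 2.26% with RANKL (SD, n = 3 each). In both pairs the lowest albiflorin library lay below the highest RANKL library. These shares were not tested, and they rest on the transcript length taken for each gene: by the deposited FPKM the mean shares were 23.8 ± 1.72% with albiflorin and 22.3 ± 0.656% with RANKL for Psmb9, and 47.1 ± 1.19% with albiflorin and 43.4 ± 3.4% with RANKL for Psmb10.

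For the pair of Psmb8 and Psmb5 no share was computed. Of the rows whose deposited protein match was Psmb5, 2 were tested: a processed pseudogene (chromosome 7, 57891 to 58685) averaged 19.1 ± 2.43 CPM with albiflorin and 13.7 ± 1.05 CPM with RANKL, and the microRNA row Mir686 (chromosome 14, 51043395 to 51043503) averaged 18.6 ± 1.88 CPM with albiflorin and 14.2 ± 2.18 CPM with RANKL (SD, n = 3 each). Both were called higher, with log2 fold changes of 0.48 ± 0.12 (SE, adjusted p = 0.00608) and 0.39 ± 0.12 (SE, adjusted p = 0.0266). Neither call held without the mRNA-length trend, where the pseudogene stood at 0.15 (adjusted p = 0.402) and Mir686 at -0.34 (adjusted p = 0.0809). The Mir686 row is listed at 109 bases, and how far its corrected value rests on that length was not tested. Nor was it tested whether the reads of both rows came from Psmb5 transcripts. The more abundant row with a Psmd2 protein match (MGP_C57BL6NJ_G0023067, chromosome 16, 18338305 to 18359798) averaged 234 ± 14.4 CPM with albiflorin and 245 ± 12.7 CPM with RANKL, and its log2 fold change of -0.07 ± 0.06 (SE, adjusted p = 0.473) was not called. Gm5422 (chromosome 10), also with a Psmd2 match, averaged 4.63 ± 0.285 CPM with albiflorin and 5.02 ± 1.17 CPM with RANKL. Its log2 fold change of -0.11 ± 0.20 (SE, adjusted p = 0.745) was not called.

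**Figure D2:**
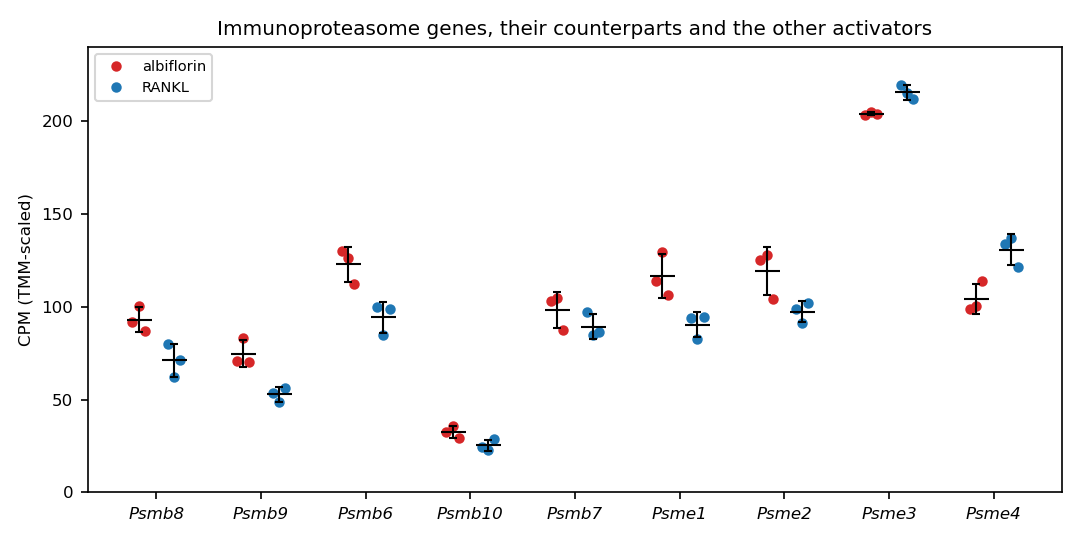
TMM-scaled CPM of the immunoproteasome genes, the counterparts Psmb6 and Psmb7, and the activators Psme3 and Psme4 in 3 albiflorin libraries (red, left) and 3 RANKL libraries (blue, right), with the mean and SD in black. Psmb8, Psmb9, Psmb10, Psme1 and Psme2 lie higher in every albiflorin library, Psmb7 overlaps, and Psme3 and Psme4 lie lower in every albiflorin library.

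In the alpha ring of the core, all 7 genes of the general particle were called higher, with log2 fold changes of 0.20 to 0.49 and a median of 0.34. Psma3 (chromosome 12, 73005515 to 73028115) had 115, 126 and 114 CPM with albiflorin and 91.7, 89.3 and 83.7 CPM with RANKL. All albiflorin libraries lay above all RANKL libraries with a gap of over 20 CPM, and its log2 fold change of 0.43 ± 0.07 (SE, adjusted p = 0.00019) stayed at 0.42 ± 0.06 (adjusted p = 0.000207) without the mRNA-length trend and at 0.39 ± 0.06 (adjusted p = 0.000276) without the gene-length trend. These corrected values rest on an assigned mRNA of 2846 nt and a listed gene length of 3360 nt. A correction with a shorter transcript was not tested. A processed pseudogene row with a Psma3 protein match (chromosome 6) was called higher, by 0.59 ± 0.14 on the log2 scale (SE), at 17.7 ± 2.98 CPM with albiflorin and 11.8 ± 1.91 CPM with RANKL. Another such row (chromosome 14) stood at 0.80 ± 0.35 (SE, adjusted p = 0.102), overlapped between the groups and was not called. Whether the reads of these rows came from Psma3 transcripts was not tested.

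Psma2 (chromosome 13, 12225090 to 12241675) had the largest difference of the alpha ring, with 137, 151 and 123 CPM with albiflorin and 106, 88.8 and 99.4 CPM with RANKL, a log2 fold change of 0.49 ± 0.08 (SE, adjusted p = 0.000245). Its value depended on the length assigned to it: 0.49 ± 0.07 (adjusted p = 0.000686) with an mRNA of 2911 nt, and 0.16 ± 0.06 (adjusted p = 0.0547) with the listed gene length of 944 nt. Psma4 had 214, 242 and 208 CPM with albiflorin and 162, 173 and 161 CPM with RANKL, a log2 fold change of 0.42 ± 0.07 (SE). Psma6, the alpha gene with the highest level per kilobase, had 281, 284 and 263 CPM with albiflorin and 237, 193 and 223 CPM with RANKL, a log2 fold change of 0.34 ± 0.07 (SE). For Psma7 the values were 174, 184 and 167 CPM with albiflorin and 148, 131 and 140.5 CPM with RANKL, a log2 fold change of 0.32 ± 0.06 (SE). These 3 genes had adjusted p-values of 0.00022 for Psma4, 0.00154 for Psma6 and 0.00125 for Psma7, and none was called without the mRNA-length trend.

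The remaining alpha genes changed less. Psma5 stood at a log2 fold change of 0.26 ± 0.07 (SE, adjusted p = 0.00914). It was not called without the mRNA-length trend (0.03 ± 0.05, adjusted p = 0.815) or without the gene-length trend (0.006 ± 0.05, adjusted p = 0.963). Psma1 had the smallest value, with 226, 235 and 199 CPM in albiflorin libraries and 201, 173 and 199 CPM in RANKL libraries. Albiflorin 3 lay below RANKL 1 and RANKL 3, and the log2 fold change of 0.20 ± 0.07 (SE, adjusted p = 0.0439) was called in 2 of the 6 leave-one-out fits, with an adjusted p of up to 0.216. Psma8, the alpha subunit of the testis, stayed at about 1 CPM, with 0.725, 0.595 and 1.34 CPM in albiflorin libraries and 1.47, 1.27 and 0.81 CPM in RANKL libraries. Its groups overlapped and its log2 fold change of -0.41 ± 0.40 (SE, adjusted p = 0.501) was not called.

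In the constitutive beta ring, 5 of 6 genes were called higher, Psmb7 being the other, with a median log2 fold change of 0.33. Psmb3, a non-catalytic beta subunit (chromosome 11, 103251641 to 103263194), had the highest log2 fold change of all members, 0.55 ± 0.08 (SE, adjusted p = 0.000103), with 118, 129.8 and 104 CPM in albiflorin libraries and 76.4, 77.7 and 86.6 CPM in RANKL libraries. Every albiflorin library lay above every RANKL library. The value was 0.17 ± 0.06 (adjusted p = 0.0596) without the mRNA-length trend and 0.42 ± 0.07 (adjusted p = 0.000312) without the gene-length trend.

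Psmb1, a non-catalytic subunit of the same ring (chromosome 17, 13931407 to 13950566), had 190.4, 213 and 178 CPM with albiflorin and 158, 146 and 141 CPM with RANKL, a log2 fold change of 0.38 ± 0.07 (SE, adjusted p = 0.000652). Without the mRNA-length trend it stood at 0.25 ± 0.06 (adjusted p = 0.00707), and without the gene-length trend at 0.07 ± 0.06 (adjusted p = 0.395). Its mRNA of 1758 nt is longer than the listed gene length of 1036 nt, as for Psma2 and Psmd10. The further structural subunits Psmb2 and Psmb4 had log2 fold changes of 0.27 ± 0.08 (adjusted p = 0.0124) and 0.22 ± 0.07 (adjusted p = 0.0278), and both turned to -0.06 and -0.02 without the mRNA-length trend.

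The chaperones that assemble the core stood higher in all albiflorin libraries for 4 of 4 genes, and 3 were called. Psmg4 had 28.4, 25.3 and 24.7 CPM with albiflorin and 19.7, 16.4 and 19.4 CPM with RANKL, a log2 fold change of 0.50 ± 0.10 (SE, adjusted p = 0.0018). Psmg2 had 35.0, 36.5 and 35.2 CPM with albiflorin and 26.1, 29.4 and 25.7 CPM with RANKL, a log2 fold change of 0.39 ± 0.09 (SE, adjusted p = 0.00278). Both held in every leave-one-out fit, and neither was called once a length trend was removed. Psmg1, which pairs with Psmg2 in building the alpha ring, had 40.8, 44.7 and 35.2 CPM with albiflorin and 32.1, 30.1 and 33.1 CPM with RANKL. It stood at 0.34 ± 0.09 (SE, adjusted p = 0.0106) and was called in 3 of the 6 leave-one-out fits. Psmg3, the least abundant of the 4, stood at 0.37 ± 0.15 (SE) and was not called (adjusted p = 0.0821).

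Of the genes of the 19S particle and its assembly, 8 of 19 were called higher, with 0 lower and a median log2 fold change of 0.18. The core, with Psma8 counted in, had 12 of 14 tested genes called higher, 0 lower and a median of 0.33. Whether the 19S genes differed from the core was not tested. The median mRNA length was 1626 nt for the 19S genes, 1174 nt for the tested core genes and 1311 nt for the immunoproteasome genes. With the mRNA-length trend removed, the median log2 fold changes were 0.04, 0.03 and 0.13 in the same order. Summed over the genes of each, the core had 2209.7, 2313 and 2030.5 CPM with albiflorin and 1831, 1622 and 1765 CPM with RANKL, a ratio of means of 1.26. The 19S genes summed to 2570.3, 2623 and 2438 CPM with albiflorin and 2348, 2132 and 2351 CPM with RANKL, a ratio of means of 1.12. The immunoproteasome genes summed to 435, 477 and 398 CPM with albiflorin and 351, 308 and 353 CPM with RANKL, a ratio of means of 1.29. None of the 3 sums overlapped between groups.

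Of the 6 ATPases that form the base ring, Psmc5, Psmc6 and Psmc2 were called higher. Psmc5 had the highest value, with 109, 118 and 109.9 CPM in albiflorin libraries and 91.5, 84.6 and 95.8 CPM in RANKL libraries, a log2 fold change of 0.31 ± 0.07 (SE, adjusted p = 0.00222). It was not called without the mRNA-length trend (0.10 ± 0.05, adjusted p = 0.28) or without the gene-length trend (0.07 ± 0.06, adjusted p = 0.444). Psmc6 stood at 0.29 ± 0.07 (adjusted p = 0.00641), and at 0.22 ± 0.06 (adjusted p = 0.0333) without the mRNA-length trend. Psmc1 had the lowest value, 0.10 ± 0.06 (SE, adjusted p = 0.258), with 202, 211 and 197 CPM in albiflorin libraries and 199.9, 174 and 195 CPM in RANKL libraries, which overlapped.

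Of the 10 non-ATPase subunits, 4 were called higher: the ubiquitin receptor Psmd4, the deubiquitinase Psmd14, Psmd8 and Psmd12. Psmd4 had 240.5, 258 and 235 CPM with albiflorin and 221, 172 and 224 CPM with RANKL. RANKL 2 lay well below the other RANKL libraries, the log2 fold change was 0.25 ± 0.08 (SE, adjusted p = 0.0379), and in leave-one-out fits the adjusted p reached 0.202. At the other end Psmd1, the large scaffold subunit of the base, had 152, 154 and 155 CPM with albiflorin and 170.3, 163 and 171 CPM with RANKL. All albiflorin libraries lay below all RANKL libraries, but the log2 fold change of -0.13 ± 0.06 (SE, adjusted p = 0.114) was not called. The other 5 ranged between -0.07 (Psmd3) and 0.18 (Psmd6), and none of the 10 was called with either length trend removed.

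Among the 3 chaperones of 19S assembly, Psmd10 (gankyrin) was called, with 77.7, 78.7 and 72.8 CPM in albiflorin libraries and 64.5, 64.4 and 61.9 CPM in RANKL libraries, a log2 fold change of 0.27 ± 0.07 (SE, adjusted p = 0.00717). Without albiflorin 1 its adjusted p was 0.0505, and without the gene-length trend its value was -0.12 ± 0.07. Psmd5, the longest mRNA of the 19S genes, had 51.0, 54.7 and 49.3 CPM with albiflorin and 44.2, 46.4 and 48.8 CPM with RANKL. It was not called as measured (0.15 ± 0.08, adjusted p = 0.154), and was called higher at 0.26 ± 0.07 (adjusted p = 0.0261) without the mRNA-length trend and at 0.27 ± 0.08 (adjusted p = 0.0159) without the gene-length trend. Psmd9, which shares sequence on the same strand with the Wdr66 row, stood at 0.16 ± 0.08 (SE, adjusted p = 0.177), and at 0.28 ± 0.08 (adjusted p = 0.0202) without the gene-length trend.

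Of the activators outside PA28 alpha and beta, Psme4 was called lower and Psme3 did not pass the test, nor did the inhibitor Psmf1. Psme4, which encodes PA200, the nuclear activator known for the degradation of acetylated histones (chromosome 11, 29836367 to 29949804), had 98.7, 101 and 114 CPM with albiflorin and 134, 137 and 121 CPM with RANKL. All albiflorin libraries lay below all RANKL libraries, albiflorin 3 and RANKL 3 being nearest to each other. The log2 fold change was -0.33 ± 0.07 (SE, adjusted p = 0.00223). It was called lower in every leave-one-out fit (adjusted p between 0.000333 and 0.0222) and without the gene-length trend (-0.18 ± 0.06, adjusted p = 0.0388), but not without the mRNA-length trend (-0.13 ± 0.06, adjusted p = 0.151).

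Psme3, the nuclear PA28 gamma (chromosome 11, 107412194 to 107419520), had 203, 205 and 204 CPM with albiflorin and 219.7, 215 and 212 CPM with RANKL. The groups did not overlap, but the log2 fold change of -0.08 ± 0.06 (SE, adjusted p = 0.328) was not called. Once the gene-length trend was taken out it passed as lower, at -0.15 ± 0.05 (adjusted p = 0.0494). Psmf1, the inhibitor PI31 (chromosome 2, 160774542 to 160810652), had 36.8, 39.7 and 35.1 CPM with albiflorin and 30.7, 33.3 and 33.2 CPM with RANKL. Its log2 fold change of 0.20 ± 0.08 (SE, adjusted p = 0.0929) was not called as measured and was called at 0.27 ± 0.08 (adjusted p = 0.0351) without the mRNA-length trend and at 0.30 ± 0.08 (adjusted p = 0.0175) without the gene-length trend. Psmc3ip, the name match, stood at 0.40 ± 0.10 (SE, adjusted p = 0.00786), and the Mlx row that overlaps it on the opposite strand had 131% of its counts.

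The libraries within a group were not alike for these genes. Albiflorin 2 was the highest of the 6 libraries for 30 of the 46 tested members and RANKL 2 the lowest for 30, against 26.4% and 24.3% of all tested genes. Albiflorin 1 was the highest for 10, and albiflorin 3 for 1. The median member deviated from its mean over the 6 libraries by 0.16, 0.20 and 0.05 (log2 CPM) in albiflorin 1 to 3 and by -0.09, -0.22 and -0.07 in RANKL 1 to 3. Albiflorin 3 was thus the albiflorin library nearest to the RANKL libraries.

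**Figure D3:**
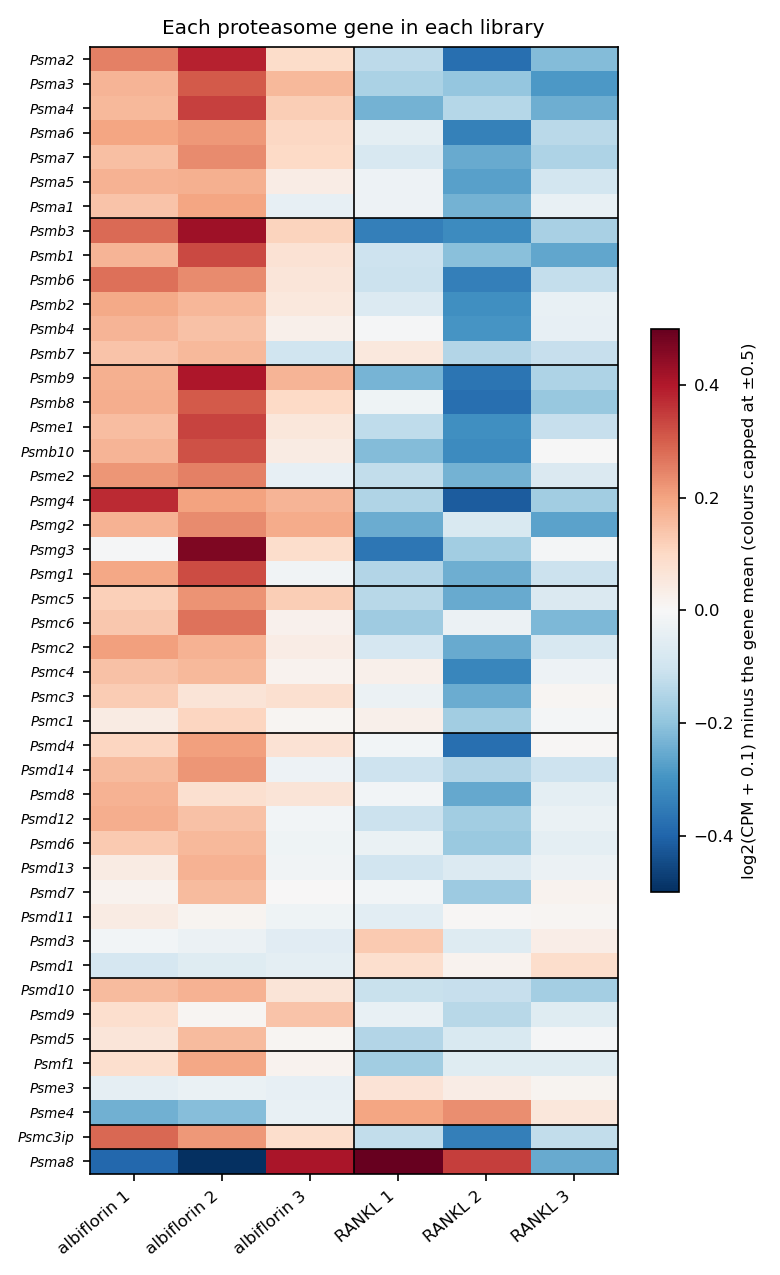
Log2 of CPM + 0.1 in each library minus the gene's mean over the 6 libraries, for the 46 tested proteasome genes in rows grouped by class, with the 3 albiflorin libraries left of the line and the 3 RANKL libraries right of it; colours are capped at 0.5 either way. Most rows are red on the left and blue on the right, strongest in albiflorin 2 and RANKL 2, while Psme4, Psme3 and Psmd1 show the opposite pattern and Psma8 is mixed within both groups.

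Transcript length moved with the same libraries. Among the other protein-coding genes tested, the log2 fold change had a median of 0.37 where the mRNA was under 1000 nt, 0.21 between 1000 and 1500 nt, 0.10 between 1500 and 2500 nt, -0.02 between 2500 and 4000 nt and -0.16 from 4000 nt on. Short genes minus long genes, in median deviation of log2 CPM, came to 0.26, 0.44 and 0.09 in albiflorin 1 to 3 and to -0.22, -0.39 and -0.21 in RANKL 1 to 3. The tested members had a median mRNA length of 1435 nt. The part of length in the members' differences was not tested.

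Set against genes of like length, 32 of the 46 members lay above the median of the other genes of their length class, and 22 above the upper quartile. The 7 members under 1000 nt had a median of 0.37, the same as the others of that class. The 17 members between 1000 and 1500 nt had a median of 0.31, and the 14 between 1500 and 2500 nt one of 0.19. The 6 members between 2500 and 4000 nt, among them Psma2, Psma3 and Psmf1, had a median of 0.18. Across genes, Spearman's rho of the log2 fold change with mRNA length was -0.61 over protein-coding genes and -0.52 over the tested members, as a description of genes that share the same 6 libraries. With the mRNA-length trend removed, the medians were 0.03 for the core, 0.04 for the 19S particle and 0.13 for the immunoproteasome, and the 8 members called higher were Psma2, Psma3, Psmb1, Psmb8, Psmb9, Psmc6, Psmd5 and Psmf1.

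**Figure D4:**
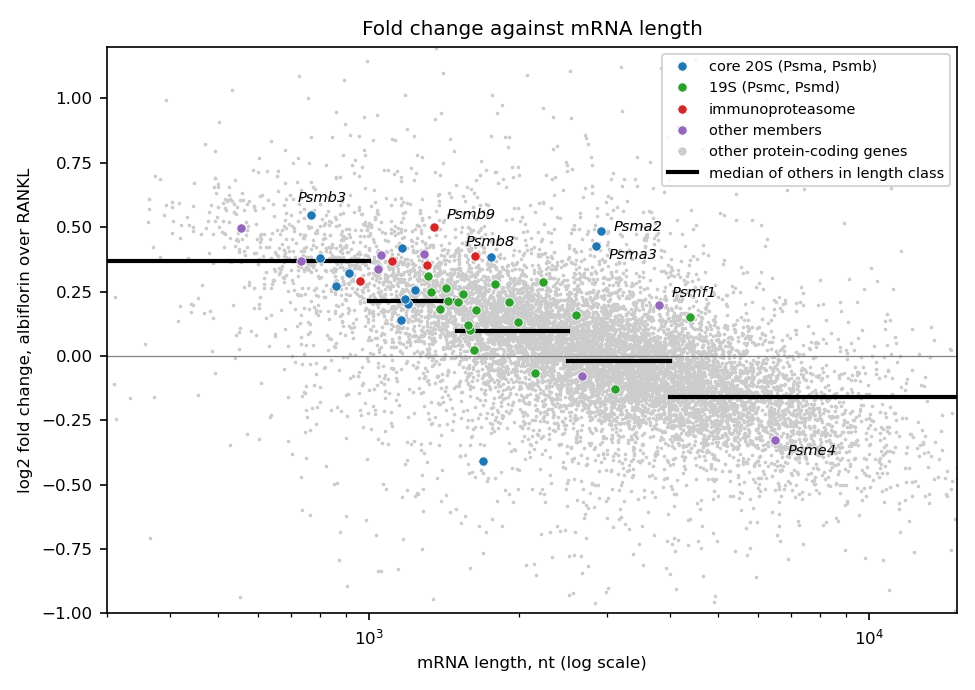
Log2 fold change, albiflorin over RANKL, against mRNA length (log axis) for the tested proteasome genes, coloured by class, and 10742 other protein-coding genes in grey, with 67 others outside the axes not drawn; black lines are the medians of the others in 5 length classes. The lines step down with length, and Psmb9, Psmb8, Psma2, Psma3 and Psmf1 lie above the line of their class while Psme4 lies below the line of the longest.

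Of the 47 members, 24 overlap another row of the table, and for 6 of them that row had at least 10% of the member's counts. Beside those named above with their partners, these were Psmc3, whose overlapping row without a symbol had 16.7% of its counts, and Psmd13, where the Sirt3 row had 11.4%, both on the opposite strand.

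Levels differed more between members than between the groups. In CPM per kilobase of mRNA, averaged over the 6 libraries, the genes of the alpha ring ranged between 36.4 (Psma3) and 237 (Psma6), with a median of 166, and those of the beta ring between 80.9 (Psmb7) and 176 (Psmb4), with a median of 113. The ATPases had a median of 75.8, the other 19S subunits 72.9, the immunoproteasome genes 50.4, the core chaperones 32.0 and the 19S chaperones 12.4. Within the immunoproteasome group Psmb10, at 22.1, was the lowest and Psme2, at 113, the highest. For Psma2 the level rested on the length used: 40.4 CPM per kilobase of mRNA, which ranked 34 of 47, against 124 FPKM with the listed length, which ranked 6.

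Genes that work with the proteasome were taken from lists of known partners. Of 14 tested partners and further parts, 6 were higher and 1 lower. Beside this and the lists below, 12.5% of all tested genes were called higher and 11.7% lower. Pomp, the maturation factor of the core, had 133, 127 and 114 CPM with albiflorin and 101, 86.6 and 93.0 CPM with RANKL, a log2 fold change of 0.42 ± 0.07 (SE, adjusted p = 0.000455). Sem1, the smallest 19S subunit, listed under its older symbol Shfm1, had 120.1, 144 and 106 CPM with albiflorin and 86.6, 87.2 and 89.1 CPM with RANKL, a log2 fold change of 0.49 ± 0.08 (SE, adjusted p = 0.000508). Both were separated by group and stayed called with either length trend removed. For Sem1 no mRNA length was found, so the listed gene length was used in both corrections. Whether its call holds against its mRNA length was therefore not tested. Ubxn1, a ubiquitin-binding cofactor of the unfoldase p97, stood at 0.30 ± 0.07 (SE, adjusted p = 0.00686). Ube3a, a ubiquitin ligase that associates with the proteasome, stood at -0.32 ± 0.08 (SE, adjusted p = 0.00891). Both were near 0 without the mRNA-length trend, at 0.01 and -0.04.

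None of 9 tested genes around Nfe2l1, the transcription factor that raises proteasome genes when the protease is inhibited, was called in either direction. Nfe2l1 itself had 319, 283 and 314 CPM with albiflorin and 361, 306 and 329 CPM with RANKL, which overlapped, and a log2 fold change of -0.12 ± 0.07 (SE, adjusted p = 0.212). Of 6 ubiquitin and activating-enzyme genes, 1 was higher and 1 lower: Rps27a, which encodes ubiquitin fused to a ribosomal protein, stood at 0.83 ± 0.08 (SE, adjusted p = 4.9e-06), and the activating enzyme Uba6 at -0.34 ± 0.07 (SE, adjusted p = 0.00207). Without the mRNA-length trend Rps27a stood at 0.42 (adjusted p = 0.00933) and Uba6, no longer called, at -0.14 (adjusted p = 0.169). Rps27a has near-identical copies in the genome, so its counts are uncertain. Of 12 shuttle and unfoldase genes, the p97 cofactor Nsfl1c was higher, at 0.29 ± 0.08 (SE, adjusted p = 0.0169), and the cofactor Nploc4 lower, at -0.31 ± 0.06 (SE, adjusted p = 0.00182). The groups overlapped for Nsfl1c, which was called in 3 of the 6 leave-one-out fits (adjusted p up to 0.112) and not without the mRNA-length trend (0.11, adjusted p = 0.323).

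Among 19 tested genes of peptide loading and its regulators, downstream of the immunoproteasome, 4 were higher and 2 lower. The shares over all tested genes were 12.5% higher and 11.7% lower, and whether the list differed from them was not tested. B2m, the light chain of MHC class I, averaged 2014 ± 194 CPM with albiflorin and 1560 ± 64.8 CPM with RANKL (SD, n = 3 each), a log2 fold change of 0.37 ± 0.07 (SE, adjusted p = 0.00117), and it stood at 0.03 without the mRNA-length trend. H2-K1, a class I heavy chain, averaged 249 ± 23.8 CPM with albiflorin and 177 ± 26.8 CPM with RANKL (SD, n = 3 each), a log2 fold change of 0.49 ± 0.10 (SE, adjusted p = 0.00442); class I genes share sequence, so reads could be split between them. Stat2, a transducer of interferon signals, was lower, at 38.4 ± 0.605 CPM with albiflorin and 49.7 ± 2.23 CPM with RANKL (SD, n = 3 each), a log2 fold change of -0.37 ± 0.08 (SE, adjusted p = 0.00149). Pdia3, a chaperone of the loading complex, stood at 0.22 ± 0.06 (SE, adjusted p = 0.0146).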

How the data were processed

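RNA of 6 RAW264.7 libraries was analysed from the deposited table of raw read counts per gene, with the authors' FPKM table used as an alternative. FPKM values equalled the deposited counts over the listed gene length and a library total. Tools listed in the submitters' processing notes, without roles, were DESeq2 1.42.0, featureCounts 2.0.6-p3, HISAT2 2.2.1, fastp and CASAVA 1.8. Build and strand setting: not given in the sources used here; gene coordinates are those of the deposited table, whose identifiers carry the C57BL/6NJ prefix.

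Samples were grouped by their titles. All genes were fitted in edgeR 4.0.16 (R 4.3.3): filterByExpr, TMM scaling, robust quasi-likelihood F-test on group, Benjamini-Hochberg adjustment over 13158 genes. SE is the absolute log2 fold change over the square root of F. Members and lists were chosen with earlier results of these data known. Always given were the exchangeable catalytic pairs, Psme1 to Psme4 and Psmf1; added were the 10 other members with the smallest p, the extremes of each class, and up to 4 called genes per partner list. Length trends were removed per library by lowess (span 0.3, genes with mean log2 CPM over 3) on the listed gene length, or on the mRNA length of 1 transcript per gene in GENCODE M21 (85.9% of tested genes; the rest took the listed length). Further alternatives were RLE, DESeq2 1.42.0, limma-voom (limma 3.58.1), no filter, a stricter filter (at least 10 counts and 1 CPM in 3 libraries), limma on FPKM values as log2(FPKM + 1) or with 0.1 in place of 1, a replicate block and leaving out each library. The edgeR and trend steps were tested on simulated data. Promoter windows were RefSeq's, GRCm38.p6.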

Additional observations from a re-analysis of the deposited data

How the results depend on the processing

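The member counts held within 1.5 times under RLE scaling, DESeq2, limma-voom, either filter and limma on FPKM, between 20 and 30 higher and 1 lower. Removing the gene-length trend left 12 members higher and 2 lower, and 986 genes higher in all; the medians became 0.0929 for the core, 0.0812 for the 19S particle and 0.23 for the immunoproteasome. Removing the mRNA-length trend left 8 higher and 0 lower, 709 and 816 genes in all, and medians of 0.0252, 0.0356 and 0.13. Limma on log2(FPKM + 1) called 956 genes lower and on log2(FPKM + 0.1) 954. The cause of these shifts was not tested. Among called genes, signs turned without the gene-length trend for Psmd8 (-0.00605), Psmb2 (-0.00104), Psmd10 (-0.12) and Ubxn1 (-0.00577), and without the mRNA-length trend for Psmb4 (-0.0216), Psma1 (-0.0411), Psme2 (-0.0155) and Psmb2 (-0.0636); of members not called, Psmc1 and Psmd7 turned below 0 in both fits and Psmd6, Psmd11, Psmb7 and Psmg3 without the mRNA-length trend. Leaving out 1 library gave 15 to 32 members higher and 1 lower each time, 1033 to 1782 genes higher and 988 to 1700 lower, and medians of 0.27 to 0.38 for the core, 0.13 to 0.23 for the 19S particle and 0.28 to 0.43 for the immunoproteasome. Deviations of same-numbered libraries had correlations of 0.022, -0.043 and -0.066, against -0.024 to 0.072 between differently numbered ones. Whether the numbers stand for a shared culture or batch is not given in the labels, and these values cannot decide it. A replicate block gave 27 members higher and 1 lower, and 1350 and 1209 genes. With 3 libraries per group, the depth of low genes limits precision (Psmg3, at about 10 CPM, had an SE of 0.15 on the log2 scale), and unknown strand use leaves overlapping genes uncertain.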

Other observations

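Rows outside the rule whose deposited protein match was a proteasome gene numbered 41, of which 30 were pseudogenes and 17 had 0 counts in all libraries. The pseudogene rows held 0.752% as many counts as the members. Of the 11 tested, Gm4950, a protein-coding row with a Psmb3 match chosen after its values were seen, had 2.04, 2.97 and 2.25 CPM with albiflorin and 1.25, 1.47 and 1.28 CPM with RANKL, a log2 fold change of 0.85 ± 0.30 (SE, adjusted p = 0.042), which was 0.48 (adjusted p = 0.337) and not called without the mRNA-length trend. Gm8394, a row with a Psma5 match and also chosen after its values were seen, had 10.9, 12.3 and 11.0 CPM with albiflorin and 8.95, 10.6 and 10.5 CPM with RANKL, and its log2 fold change of 0.18 ± 0.13 (SE, adjusted p = 0.341) was not called.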
